A study of Mus musculus with 2 samples.

Results

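Collagen chain genes were described across single cells sorted from the lungs of old mice. The members were all genes of the deposited table whose symbol is Col, a number, the letter a and a number, which took 32 of the 15526 genes. By the known assemblies of their chains, 8 are fibrillar, 6 belong to the type IV network of basement membranes, 5 are fibril-associated (FACIT), 4 form beaded filaments, 2 are short-chain network collagens, 2 are multiplexins, 3 are transmembrane, 1 forms anchoring fibrils and 1 was put in no class. All cells came from p16-FDR mice on the C57BL/6 strain, aged 20 to 22 months. These animals carry an FLP recombinase together with a diphtheria toxin receptor (DTR) fused to mCherry, a red fluorescent protein, and mCherry+ lung cells were taken by FACS. There was 1 group with 2 samples, and no mCherry-negative or young cells were analysed here, so every comparison below is between cell classes of the sorted population. RNA was counted with the 10x Genomics 3' v3 kit, in which each captured transcript end carries a unique molecular identifier (UMI). The table held 1344 cells.

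Collagens are secreted or membrane proteins whose chains wind by threes into a triple helix, so that cells have to make fitting sets of chains together. Types I, III and V build the banded fibrils that give the lung its tensile strength, and are classically made by fibroblasts and smooth muscle. Type IV chains assemble into the sheet under endothelium and epithelium, with the alpha1 and alpha2 chains found in nearly every basement membrane and the alpha3, alpha4 and alpha5 chains in that of the alveolus and the kidney glomerulus. FACIT collagens decorate fibrils, type VI forms microfilaments around cells, and multiplexins sit between basement membrane and stroma.

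Cell names marked 2 libraries, with 1145 cells in library 1 and 199 in library 2. They were not matched to the 2 samples and shared 0 barcodes. Median depth was 5631 UMIs per cell in library 1 (range 2517 to 49467) and 6716 in library 2 (range 2526 to 41631). Since cells are not replicates and the table counts as 1 sample, no test between classes was run. Rates are UMIs of a gene per 10000 UMIs of all cells of a class, with exact Poisson 95% intervals in parentheses, and shares of cells carry exact Clopper-Pearson 95% intervals. Both cover counting error only, not the spread between animals. A molecule is counted once whatever its length, so rates were not scaled by gene length, but capture can differ between genes. Cells were clustered without the collagen genes and their pathway genes. Of the 13 clusters, 2 were endothelial-like (601 cells, of which 454 were Car4-high and 147 Plvap- and Vwf-high) and 2 were mesenchymal-like (187 cells, of which 95 were contractile-mesenchymal-like and 92 fibroblast-like). The contractile-mesenchymal-like cluster was named from leading genes such as Acta2 and Tagln, but it was mixed. A finer clustering put 64 of its 95 cells in a Smoc2- and Cyp2e1-high group and 28 in a Myh11-high group. Chains higher in this cluster are thus not credited to smooth-muscle-like cells alone. Lymphoid-like cells numbered 261 and myeloid-like cells 249. Of 14 pan-endothelial markers measured, 12 were summed, at a rate of 269 in endothelial-like cells against 6.17 in mesenchymal-like cells. Each of these 12 had UMIs in both classes, so the rates and not detection separate them. Of 16 fibroblast markers measured, 15 were summed, at 201 in mesenchymal-like cells against 0.194 in endothelial-like cells. Cluster 11 (46 cells) stayed unnamed, since airway secretory genes led it while fibroblast markers were also detected, and 23.9% of its cells held markers of several lineages. Library 2 gave only 5 of the mesenchymal-like cells, so nearly all values for them come from library 1.

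The main collagen chains differed between mesenchymal-like and endothelial-like cells, while type IV chains were seen in both. Mesenchymal-like cells held 11672 of the 16698 collagen UMIs in the table and endothelial-like cells 2866. A further 1943 lay in the unnamed cluster 11. In mesenchymal-like cells 63.5% of the collagen UMIs were fibrillar, 16.5% beaded filament and 6.28% basement membrane chains. In endothelial-like cells 84.2% were basement membrane chains, 13.96% were FACIT chains and 0.593% were fibrillar. The summed rate of all chains was 87.5 (86 to 89.1) in mesenchymal-like cells and 8.08 (7.78 to 8.38) in endothelial-like cells. It was 0.876 (0.758 to 1.01) in myeloid-like cells and 0.104 (0.0637 to 0.161, 20 UMIs in all) in lymphoid-like cells, which are not known as collagen producers and serve below as the measured background.

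**Figure D1:**
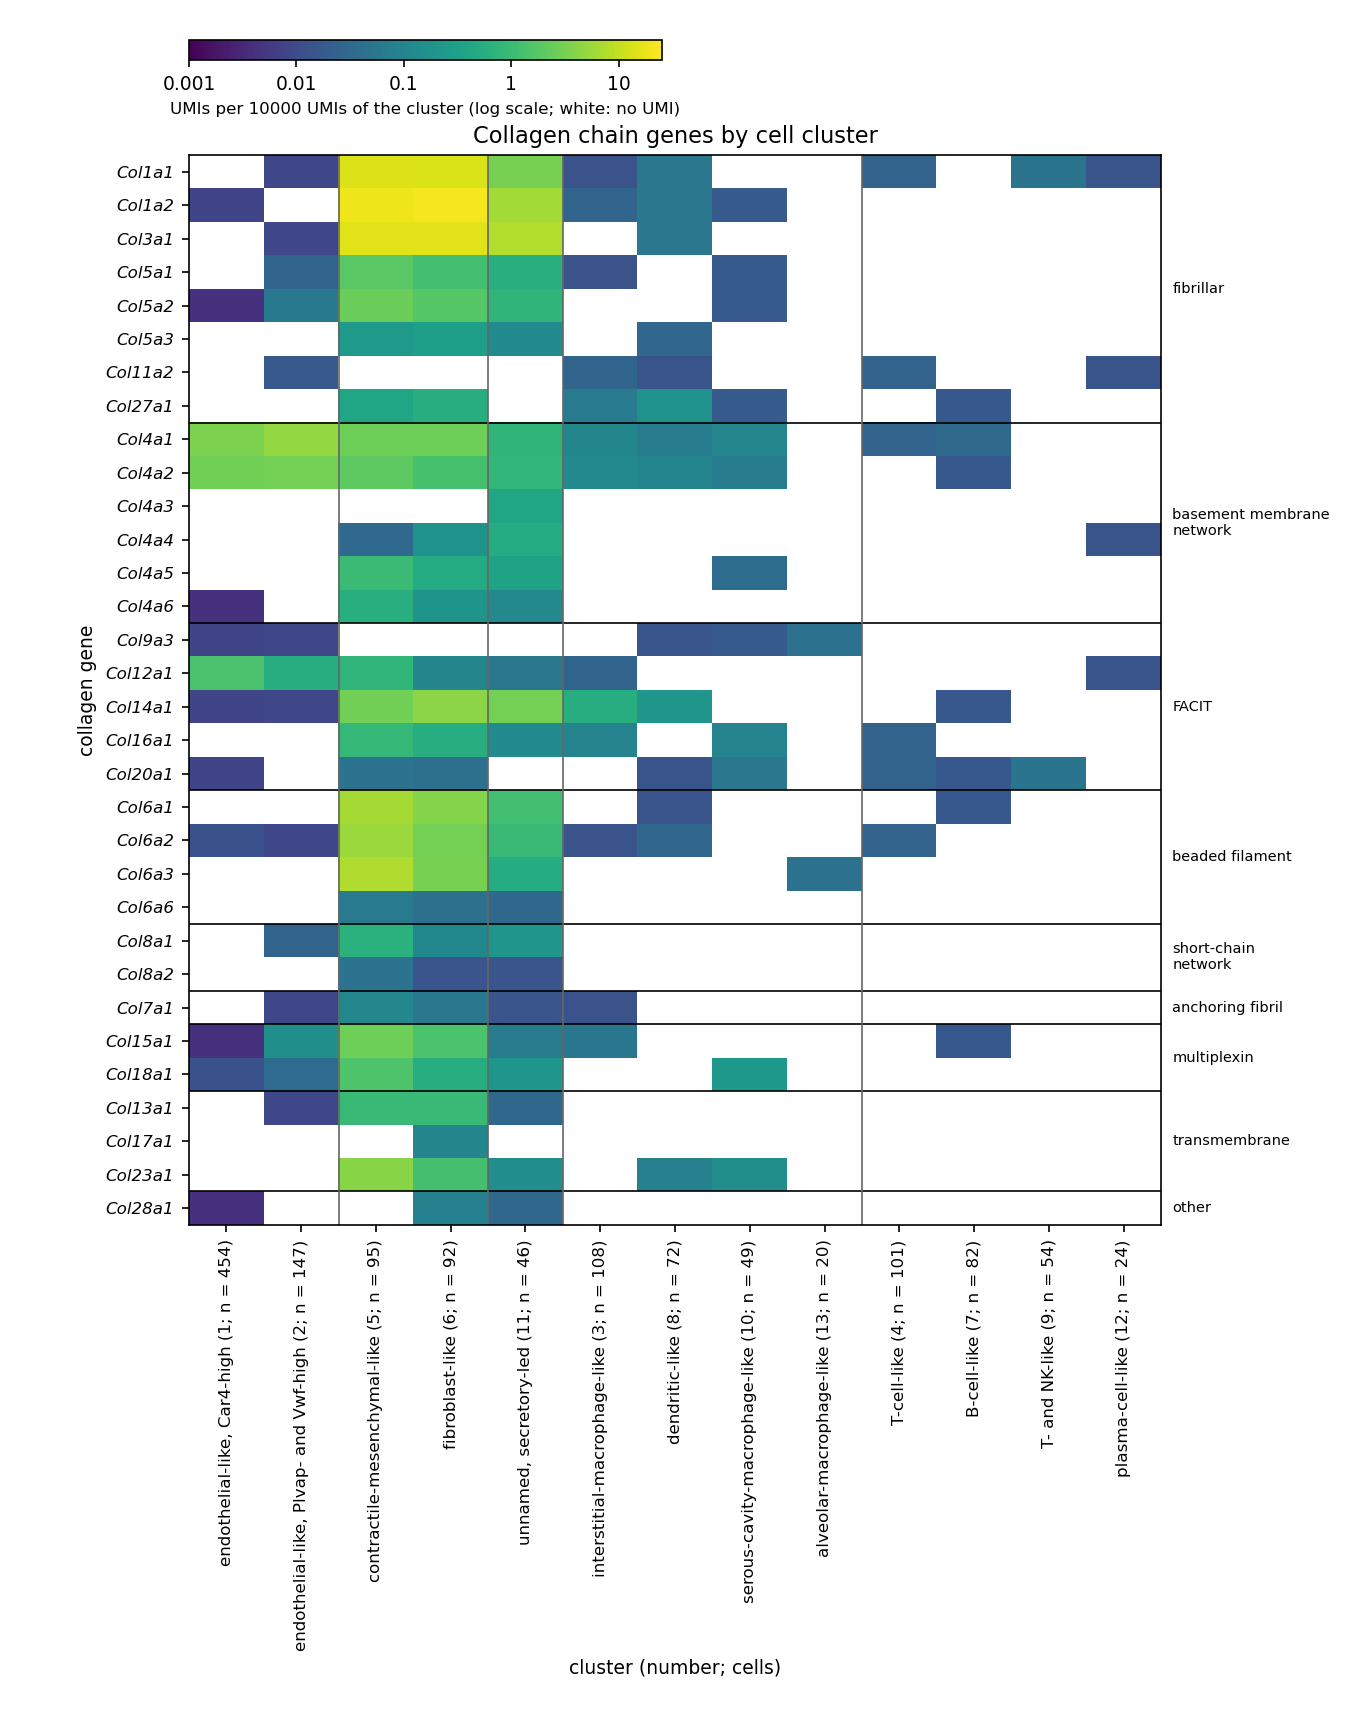
Rate of each of the 32 collagen genes (rows, by chain class) in each of the 13 clusters (columns), in UMIs per 10000 UMIs on a log colour scale, with white for no UMI. Columns 3 and 4, the mesenchymal-like clusters, are filled in nearly every row, while the 2 endothelial-like columns reach a rate of 1 in the rows of Col4a1, Col4a2 and, for the Car4-high cluster, Col12a1.

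Of the 32 members, 24 had at least 20 UMIs in the table. In mesenchymal-like cells 20 of these 24 were at least 2-fold higher than in all other cells, against a background of 14.9% of all 12488 genes with as many UMIs, and 0 were at least 2-fold lower (background 21.2%). The 4 in between were Col4a1, Col4a2, Col4a3 and Col12a1. The median collagen gene was 26.1-fold higher in mesenchymal-like cells, where the median over all genes was 0.919-fold. In endothelial-like cells 3 of 24 were at least 2-fold higher, Col4a1, Col4a2 and Col12a1 (background 25.6%), and the other 21 were at least 2-fold lower (background 23.7%). Their median fold was 0.0417 against 1.32 over all genes. These counts describe 1 pooled sample and carry no test. Genes with no UMI in a class were set at 3 counts over the class.

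**Figure D2:**
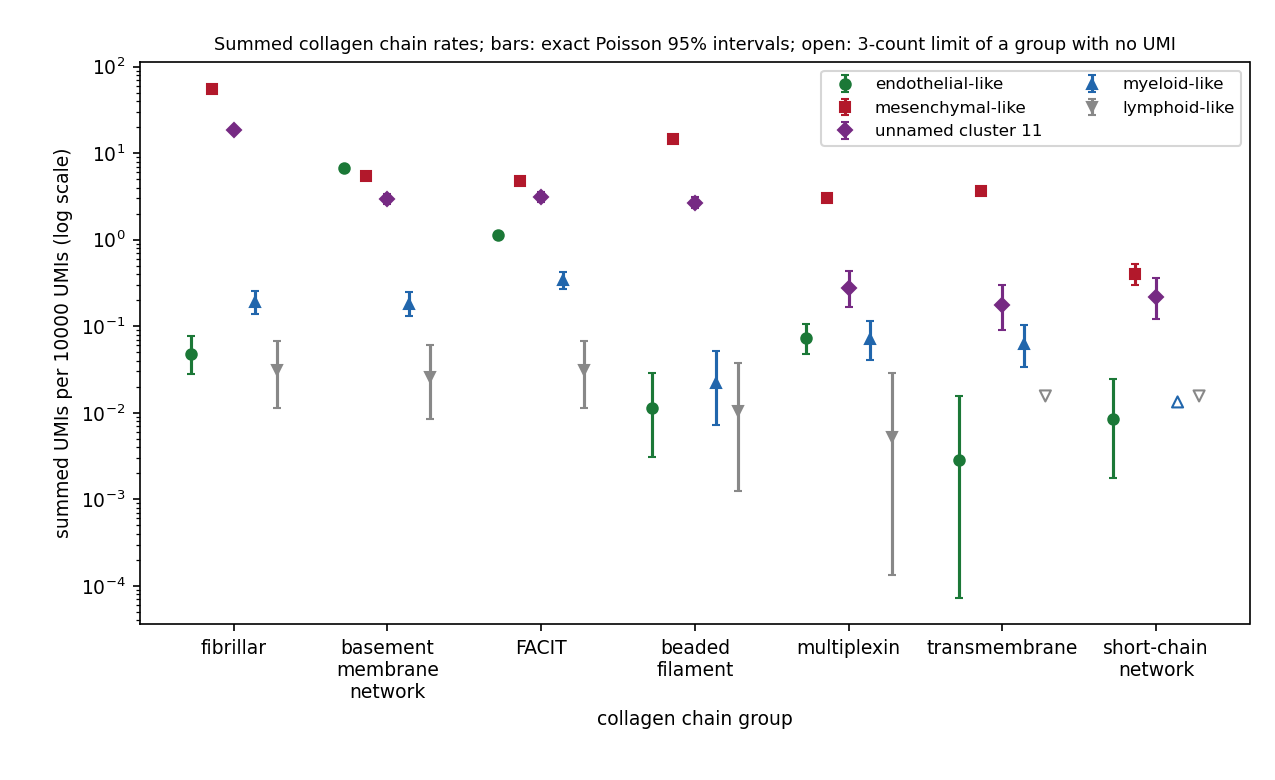
Summed rate of each chain class (x axis) in UMIs per 10000 UMIs on a log scale, by cell class, with exact Poisson 95% intervals; open symbols mark the 3-count limit where a class had no UMI. Endothelial-like cells (circles) lie above mesenchymal-like cells (squares) for basement membrane chains, 6.80 against 5.50 and far below them for fibrillar chains, 0.0479 against 55.6.

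Fibrillar chains were summed first. Their rate was 55.6 (54.3 to 56.8) in mesenchymal-like cells, with 54.8 (53.0 to 56.6) in the contractile-mesenchymal-like and 56.3 (54.5 to 58.0) in the fibroblast-like cluster, whose intervals overlapped. In endothelial-like cells it was 0.0479 (0.0279 to 0.0767, 17 UMIs in 16 cells), with an interval that overlapped the 0.0313 (0.0115 to 0.0681) of lymphoid-like cells, so fibrillar chains above background were not detectable there at this depth. The 17 UMIs lay mostly in the Plvap- and Vwf-high cluster, at 0.120 (0.0658 to 0.202) against 0.0126 (0.0026 to 0.0368) in Car4-high cells. In library 1 the Plvap- and Vwf-high cells gave 0.145 (0.0792 to 0.243, 14 UMIs in 13 cells), an interval above that of lymphoid-like cells. Their 21 cells in library 2 held 0 UMIs. The source of these few UMIs was not tested. The 5 mesenchymal-like cells of library 2 gave 28 (23.2 to 33.5) and those of library 1 gave 56.5 (55.2 to 57.8). With so few cells in library 2 the lower value has no replicate check.

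Col1a2, the alpha2 chain of type I collagen (ENSMUSG00000029661), was the collagen gene with most UMIs, 3216 in 216 cells. Its gene lies at chr6:4504814-4541544 on the plus strand (GRCm38). The rate was 20.9 (20.1 to 21.7) in mesenchymal-like cells and 181 of these 187 cells had a UMI (an expected 92% after drawing 2500 UMIs per cell). Col3a1, the single chain of type III collagen, which partners type I in compliant tissue (chr1:45311538-45349706, plus strand), had a rate of 15.9 (15.2 to 16.6). Col1a1, the other chain of type I (chr11:94936224-94953042, plus strand), had a rate of 14.3 (13.7 to 15). Endothelial-like cells held 1 UMI of Col1a1, 2 of Col1a2 and 1 of Col3a1 among 601 cells. No UMI of Col1a2 or Col3a1 was seen in the 261 lymphoid-like cells, which allows a rate of up to 0.0156. Of the 178 mesenchymal-like cells with Col1a1, 175 also had Col1a2. Since Col1a2 was seen in nearly all mesenchymal-like cells, this overlap says little about joint expression.

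These 2 stretches, from before the RefSeq starts of Col1a2 and Col3a1, are shown because these 2 genes have the most UMIs in mesenchymal-like cells and the stretches differ in base composition, 59.3% and 35.2% G or C. Both are from RefSeq, build GRCm38.p6, plus strand, and hold only bases that no annotated exon covers. The Col1a2 stretch, chr6:4505370-4505492, lies in an intron of a GENCODE transcript that starts at 4504814, upstream of the RefSeq start. The Col3a1 stretch is at chr1:45311288-45311537. In the first, capitals mark the GC box GGGCGG, a motif of Sp1-type factors. In the second, which has no GC box, capitals mark TATAAA, the letters searched for as the TATA box. They lie near the middle of the stretch, and whether they act as a TATA box was not tested. Both strands were searched.
Col1a2: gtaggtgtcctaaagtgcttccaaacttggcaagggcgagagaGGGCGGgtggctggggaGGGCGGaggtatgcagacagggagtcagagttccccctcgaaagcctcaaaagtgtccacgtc
Col3a1: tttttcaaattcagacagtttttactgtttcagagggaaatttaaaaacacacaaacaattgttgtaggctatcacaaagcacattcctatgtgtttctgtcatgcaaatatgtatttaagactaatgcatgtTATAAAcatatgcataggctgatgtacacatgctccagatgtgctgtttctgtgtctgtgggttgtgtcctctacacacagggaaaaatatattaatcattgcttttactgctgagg
Among the 26 members with an entry, which had 28 windows of 250 bases before a start, 17 windows held the GC box and 4 the TATA box. Over all 32851 windows of that length the shares were 32.7% for the GC box and 12.4% for the TATA box. Another motif, CCAAT, searched in the same way, was in 9 member windows and in 33.8% of all windows. These 3 motifs cannot match the same bases in full. A match describes letters only.

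The minor fibrillar chains had lower rates, and the 4 with at least 20 UMIs were highest in mesenchymal-like cells. Col5a2 and Col5a1, chains of type V collagen, which starts fibrils and limits their width, had rates of 2.15 (1.90 to 2.41) and 1.55 (1.34 to 1.77) in mesenchymal-like cells. Col27a1, a chain of thin fibrils best known from cartilage, reached 0.473 (0.363 to 0.605), and Col5a3 reached 0.270 (0.189 to 0.374). Endothelial-like cells held 0 UMIs of Col27a1 and of Col5a3. With 0 set at 3 counts, the rates were 55.9-fold and 31.9-fold higher in mesenchymal-like cells, values that are no interval limits. Outside the stroma, 19 of the 83 Col27a1 UMIs lay in 16 myeloid-like cells, a rate of 0.0845 (0.0509 to 0.132), with 1 UMI in lymphoid-like cells. Of these, 13 UMIs were in 10 of 72 dendritic-like cells, and 1 of the 10 also held Col1 or Col3 UMIs. Fibroblast markers summed to 3.85 in these 10 cells against 0.645 in the other dendritic-like cells, at median depths of 13835.5 and 8499.5 UMIs. Col5a1 and Col5a2 were higher in the contractile-mesenchymal-like than in the fibroblast-like cluster, Col5a1 by 1.57-fold (1.18 to 2.10) and Col5a2 by 1.49-fold (1.17 to 1.89). Col1a1 and Col3a1 were level between these clusters, with ratios of 1.04 (0.949 to 1.14) and 0.966 (0.886 to 1.05).

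Within mesenchymal-like cells the collagen load varied widely from cell to cell. Collagen UMIs made up a median of 0.791% of a cell's UMIs, with quartiles of 0.499% and 1.11% and a range of 0.0438% to 3.20%. The median cell had UMIs of 13 chains, with a range of 2 to 20. In endothelial-like cells the median share was 0.0720%, the highest was 0.548%, and the median cell had UMIs of 2 chains. The number of chains seen rises with depth, which was a median of 6584 UMIs in mesenchymal-like and 5242 in endothelial-like cells.

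**Figure D3:**
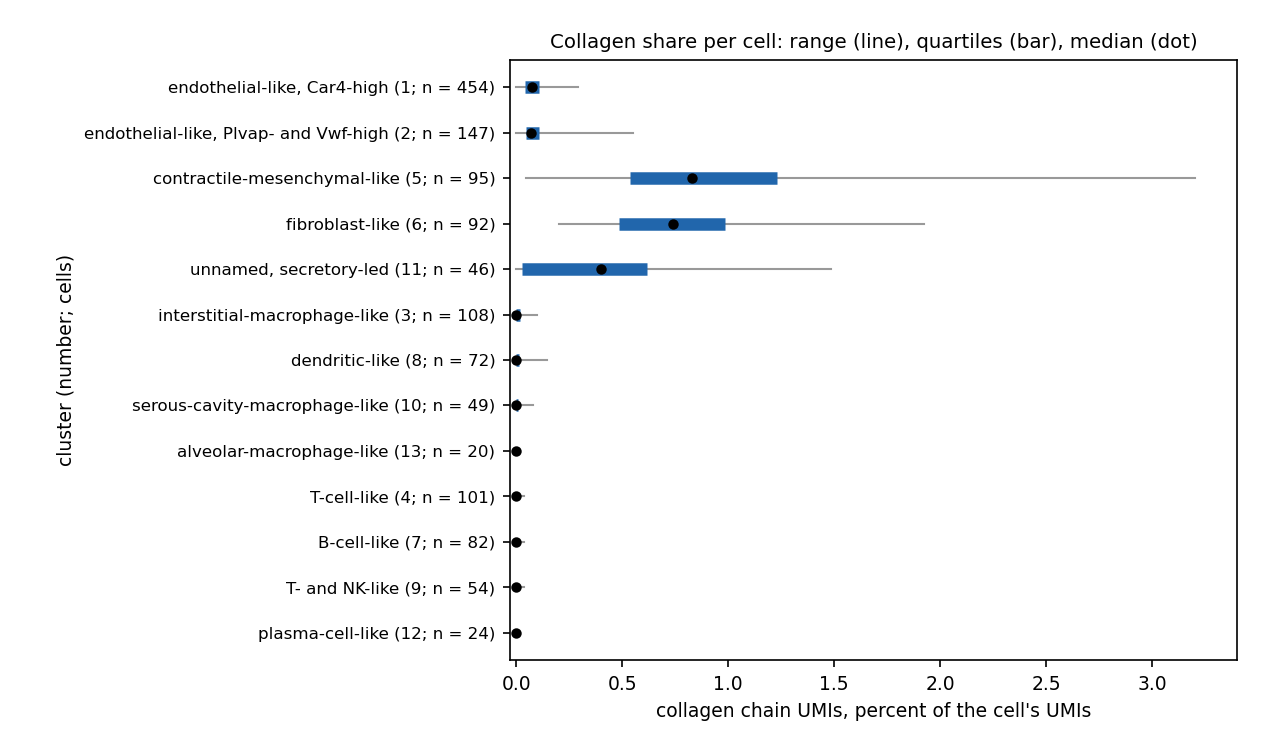
Collagen UMIs as a percent of each cell's UMIs (x axis) in the 13 clusters (rows), with lines from lowest to highest cell, bars from the first to the third quartile and dots at the median. The 2 mesenchymal-like clusters lie at medians of 0.829% and 0.740%, cluster 11 spans 0 to 1.49%, and all lymphoid-like clusters have a median of 0.

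Basement membrane chains were shared by endothelial-like and mesenchymal-like cells, at summed rates of 6.80 (6.53 to 7.08) and 5.50 (5.11 to 5.91). Lymphoid-like cells had 0.0261 (5 UMIs) and myeloid-like cells 0.182 (0.131 to 0.247). In library 1 endothelial-like cells reached 7.61 (7.27 to 7.96), and in library 2 they reached 4.89 (4.47 to 5.33), whereas the 5 mesenchymal-like cells of library 2 gave 7.18 (4.88 to 10.2). The endothelial-like cells were thus above the mesenchymal-like ones in library 1, whose mesenchymal-like cells had 5.44 (5.05 to 5.86), and in library 2 the intervals overlapped.

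Endothelial-like cells made almost only the alpha1 and alpha2 chains. Col4a1 (chr8:11198423-11312826, minus strand) had a rate of 3.86 (3.66 to 4.07) in endothelial-like and 2.65 (2.38 to 2.94) in mesenchymal-like cells, a ratio of 1.46 (1.30 to 1.64). Col4a2 (chr8:11312805-11449287, plus strand) had 2.94 (2.76 to 3.12) and 1.64 (1.43 to 1.88), a ratio of 1.79 (1.55 to 2.08). Col4a1 was seen in 82.4% of endothelial-like cells (79.1 to 85.3) and in 0.766% of lymphoid-like cells (2 of 261), whose median depth was 5242 and 4422 UMIs. Drawing 2500 UMIs from each cell would leave an expected 58.4% and 0.370%. The other 4 type IV genes had 0 or 1 UMI in all 601 endothelial-like cells, with 0 for Col4a3, Col4a4 and Col4a5, which allows a rate of up to 0.00845 each, and 1 for Col4a6.

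Type IV genes lie in head-to-head pairs in the mouse genome, and the pairs differed in where they were seen. Col4a1 and Col4a2 start on opposite strands within 22 shared bases (chr8:11312805-11312826). Col4a4 and Col4a3 start 72 bases apart on chromosome 1, and Col4a6 and Col4a5 start 1309 bases apart on chromosome X. The 22 shared bases and the gap between the Col4a4 and Col4a3 starts (chr1:82586850-82586920) are shown, from RefSeq GRCm38.p6 on the plus strand, because each is the meeting point of 2 members. Capitals mark the GC box.
Col4a1 and Col4a2 shared start: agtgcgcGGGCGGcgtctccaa
Col4a4 to Col4a3 gap: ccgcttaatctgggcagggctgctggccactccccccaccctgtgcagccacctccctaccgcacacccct
Neither of these short stretches holds a TATA box or CCAAT, but the 250-base windows of Col4a1 and Col4a2 both hold CCAAT. No source used here says whether the counting used strand; the kit reads 3' ends, which lie at the far ends of each pair.

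Within the endothelium the rate of Col4a1 differed between clusters beyond counting error, and for Col4a2 the interval of the ratio spanned 1. Col4a1 had a rate of 4.85 (4.46 to 5.27) in the Plvap- and Vwf-high cluster and 3.38 (3.15 to 3.62) in the Car4-high cluster, a ratio of 0.696 (0.624 to 0.777) for Car4-high over the other. Col4a2 had 2.99 and 2.91, a ratio of 0.974 (0.855 to 1.11). A finer clustering of all cells gave 5 endothelial-like groups, among them a Plvap-led group of 75 cells, with a Col4a1 rate of 4.13 (3.67 to 4.64), and a Vwf- and Gja4-high group of 67 cells, with 6.07 (5.36 to 6.84). The Vwf- and Gja4-high group, which carries larger-vessel markers, had the highest Col4a1 rate of the 5, and the 3 Car4-high ones ranged from 3.12 to 3.42. The ratio of Col4a1 to Col4a2 was 1.16 (1.05 to 1.28) in Car4-high and 1.62 (1.42 to 1.86) in Plvap- and Vwf-high cells. It also differed by library. In library 1 it was 1.04 (0.923 to 1.18) in Car4-high and 1.55 (1.34 to 1.79) in Plvap- and Vwf-high cells. In library 2 it was 1.53 (1.26 to 1.88) and 2.46 (1.57 to 3.97), with overlapping intervals.

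The libraries differed in both genes. For Col4a1 the Car4-high cells had 3.61 (3.32 to 3.93) in library 1 against 2.95 (2.60 to 3.34) in library 2, and the Plvap- and Vwf-high cells 5.12 (4.68 to 5.59) and 3.51 (2.73 to 4.45). Within library 1 the ratio between clusters was 0.706 (0.624 to 0.799). Within library 2 it was 0.839 (0.641 to 1.11), an interval that spans 1. For Col4a2, library 1 was 1.80-fold (1.51 to 2.16) above library 2 in Car4-high and 2.32-fold (1.57 to 3.55) in Plvap- and Vwf-high cells. The Col4a2 ratio of Car4-high over the other cluster was 1.05 (0.911 to 1.21) within library 1 and 1.35 (0.900 to 2.09) within library 2. Both intervals span 1, and both ratios lie above 1, unlike the pooled 0.974. A difference between libraries could lie in the animals or in the handling, and these cannot be told apart.

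**Figure D4:**
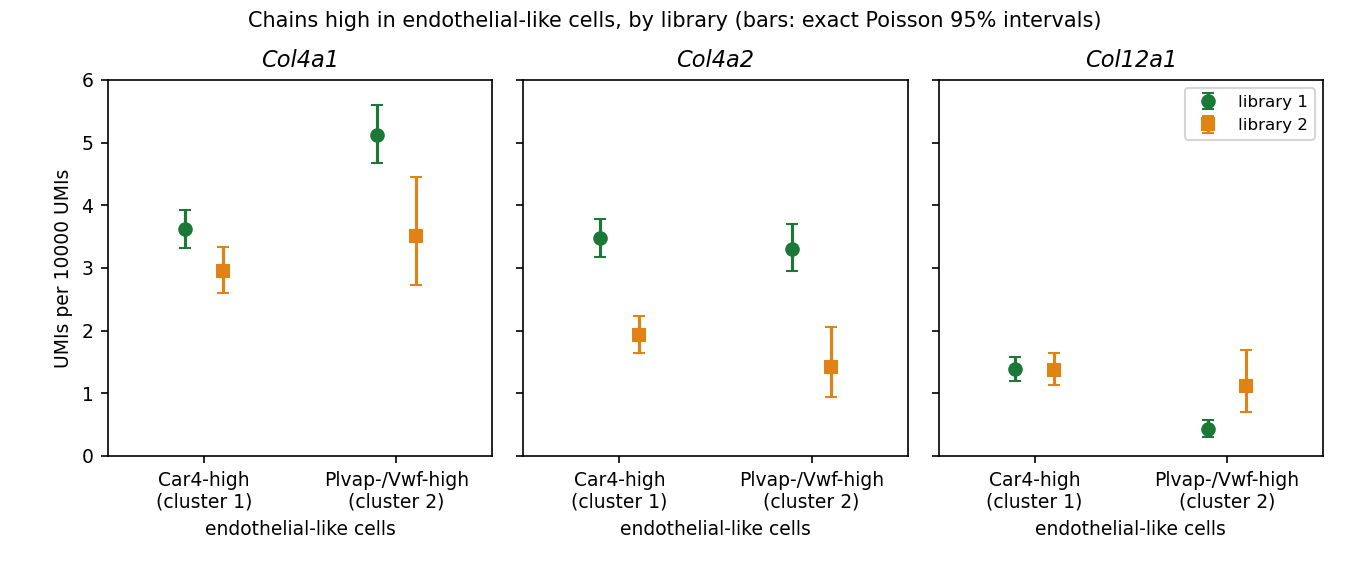
Rates of Col4a1, Col4a2 and Col12a1 (panels) in UMIs per 10000 UMIs in the 2 endothelial-like clusters, for library 1 (circles) and library 2 (squares), with exact Poisson 95% intervals. Col4a2 is lower in library 2 in both clusters, 1.92 against 3.47 and 1.43 against 3.31, and Col12a1 of the Plvap- and Vwf-high cluster is lower in library 1, 0.424 against 1.12.

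In mesenchymal-like cells Col4a1 had like rates in the 2 clusters, 2.64 and 2.66, a ratio of 0.993 (0.801 to 1.23), but Col4a2 was 1.56-fold (1.18 to 2.06) higher in the contractile-mesenchymal-like one. Col4a5 and Col4a6, which form a network of smooth muscle and some epithelia, were mostly seen there. Col4a5 had 98 of its 124 UMIs in mesenchymal-like cells, a rate of 0.735 (0.597 to 0.896), and Col4a6 had 49 of 58, a rate of 0.368 (0.272 to 0.486). Both were higher in the contractile-mesenchymal-like cluster, by 1.90-fold (1.24 to 2.96) and 3.06-fold (1.59 to 6.29). Library 2 held 0 UMIs of either.

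Col4a3 and Col4a4, which pair with Col4a5 in the alveolar basement membrane and are known from type 1 alveolar epithelium, rested on a handful of cells. All 28 UMIs of Col4a3 lay in 5 cells of the unnamed cluster 11, with 17 in 1 cell, and all were from library 1. Of these 5 cells, 3 had UMIs of Ager, a marker of type 1 alveolar cells, and 3 had Col4a4. Col4a4 had 52 UMIs in 14 cells, 37 of them in cluster 11 and 12 in the fibroblast-like cluster. Summed type 1 alveolar markers had a rate of 164 in the 5 cells with Col4a3 and 13.3 in all other cells. A count of 5 cells allows no statement on these chains in alveolar epithelium.

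Col12a1, a FACIT chain that binds the surface of type I fibrils and is best known from tendon and other dense tissue (chr9:79598991-79718831, minus strand), was the one chain outside type IV that was highest in endothelium. Endothelial-like cells held 392 of its 455 UMIs in 254 cells, a rate of 1.10 (0.998 to 1.22), against 0.420 (0.317 to 0.545) in mesenchymal-like cells, a ratio of 2.63 (1.98 to 3.55). Lymphoid-like cells held 1 UMI and myeloid-like cells 2. The 213 Car4-high cells with Col12a1 held 1 UMI of Col1a1, Col1a2 and Col3a1 in all, and a fibroblast marker rate of 0.0991 against 0.136 in Car4-high cells without it.

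Col12a1 was higher in Car4-high cells, 1.38 (1.23 to 1.54), than in Plvap- and Vwf-high cells, 0.542 (0.416 to 0.693), a ratio of 2.55 (1.94 to 3.39). In the finer groups it was 0.184 (0.0793 to 0.362, 8 UMIs) in Vwf- and Gja4-high cells, with 0.737 (0.549 to 0.969) in the Plvap-led group and 0.997 to 1.47 in the 3 Car4-high groups. The group with the highest Col4a1 rate thus had the lowest Col12a1 rate. The cluster difference came from library 1, where the ratio was 3.26 (2.32 to 4.67). In library 2 it was 1.23 (0.774 to 2.03), with 22 UMIs in 9 Plvap- and Vwf-high cells, 7 of them in 1 cell. Car4-high cells were alike in the 2 libraries, 1.38 (1.20 to 1.58) and 1.38 (1.14 to 1.65).

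Col14a1, a FACIT chain that regulates fibril assembly (chr15:55307750-55520803, plus strand), was mainly stromal, with a rate of 3.65 (3.33 to 3.98) in mesenchymal-like cells. It was higher in the fibroblast-like cluster, 4.31 (3.84 to 4.83), than in the contractile-mesenchymal-like one, 2.91 (2.5 to 3.36). Only Col14a1 and, by a small margin, Col1a2 (22.2 against 19.4) were higher in the fibroblast-like cluster with an interval of the ratio below 1, among 22 chains compared. For 13 chains the interval lay above 1 and for 7 it spanned 1.

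Outside the stroma, Col14a1 was seen in interstitial-macrophage-like cells, a class of 108 cells with Cd163, Folr2 and Ccl8 among its leading genes. There were 42 UMIs in 24 of them (22.2%, 14.8 to 31.2), a rate of 0.552 (0.398 to 0.746). Drawing 2500 UMIs per cell would leave an expected 10.9% of these cells with a UMI, and the 155 T-cell-like and T- and NK-like cells held no UMI of it, so that their rate is at most 0.0496 at 3 counts. Median depth was 6910 UMIs in the macrophages and 3606 and 3628 in the T- and NK-cell clusters. The cells with Col14a1 held 0 UMIs of Col1a1, Col1a2 and Col3a1, and their summed fibroblast marker rate was 0.222, against 0.448 in those without it. Their interstitial macrophage markers summed to 485, against 538 in those without. Library 1 alone gave 0.364 (0.231 to 0.546) from 16 cells, and library 2 alone 1.47 (0.888 to 2.30) from 8 of its 15 cells. Without the cell holding most UMIs it was 0.480 (0.336 to 0.664). In dendritic-like cells 14 UMIs lay in 6 of 72 cells, with 7 in 1 cell, and 1 of the 6 also held Col1 or Col3 UMIs. Fibroblast markers summed to 8.13 in these 6 cells against 0.606 in the other dendritic-like cells. Interstitial macrophage markers summed to 215 against 50.7. The source of these UMIs was not tested.

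Col16a1, a FACIT chain linked to fibrils and microfibrils, had 91 of 113 UMIs in mesenchymal-like cells, a rate of 0.683 (0.550 to 0.838), and 0 in endothelial-like cells. The remaining FACIT members were rare: Col20a1 had 15 UMIs and Col9a3 had 6, spread over several classes with at most 1 UMI per cell.

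The beaded filament chains Col6a1, Col6a2 and Col6a3, which join as 1 trimer around cells, were the second largest group in stroma. Their rates in mesenchymal-like cells were 4.97 (4.60 to 5.37), 4.17 (3.83 to 4.53) and 5.27 (4.89 to 5.68). Endothelial-like cells had 0 UMIs of Col6a1, 4 of Col6a2 and 0 of Col6a3. With 0 set at 3 counts, Col6a1 was 588-fold and Col6a3 624-fold higher in mesenchymal-like cells, values that are no interval limits. The ratio of Col6a3 to Col6a1 differed between clusters, at 1.21 (1.06 to 1.38) in the contractile-mesenchymal-like and 0.838 (0.699 to 1.01) in the fibroblast-like cluster. In cluster 11 it was 0.46 (0.304 to 0.691). All 3 chains were higher in the contractile-mesenchymal-like than in the fibroblast-like cluster, Col6a3 by 2.38-fold (2.03 to 2.80), Col6a2 by 1.78-fold (1.5 to 2.12) and Col6a1 by 1.65-fold (1.41 to 1.93). Col6a6 had 9 UMIs in all.

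Multiplexins release endostatin-like fragments and lie next to basement membranes. Col15a1 had a rate of 2.01 (1.78 to 2.27) and Col18a1 of 1.03 (0.863 to 1.21) in mesenchymal-like cells. They were higher in the contractile-mesenchymal-like cluster, by 1.86-fold (1.44 to 2.40) and 2.78-fold (1.90 to 4.14). In endothelial-like cells Col15a1, a chain reported in vessel walls, had 19 UMIs, of which 18 lay in 8 cells of the Plvap- and Vwf-high cluster. Those 8 cells held 0 UMIs of Col1a1, Col1a2 and Col3a1. Col18a1 was also seen in serous-cavity-macrophage-like cells, 12 UMIs in 8 of 49 cells, with 0 Col1 and Col3 UMIs in them.

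The transmembrane chains Col23a1 and Col13a1 stay anchored in the cell surface. Col23a1 had 356 of its 380 UMIs in mesenchymal-like cells, a rate of 2.67 (2.40 to 2.96), and 0 in endothelial-like cells. Col13a1, known from cell adhesion sites, had 126 of 129 there, a rate of 0.945 (0.787 to 1.13). Their clusters differed: Col23a1 was 3.27-fold (2.56 to 4.20) higher in the contractile-mesenchymal-like cluster, where 247 of its 266 UMIs lay in the 64 cells of the Smoc2- and Cyp2e1-high group of a finer clustering, whereas for Col13a1 the ratio was 1.04 (0.719 to 1.49). Col8a1, a short-chain collagen of vessel walls, had 49 of 66 UMIs in mesenchymal-like cells and was 5.67-fold (2.62 to 14) higher in the contractile-mesenchymal-like cluster, with 14 UMIs in 1 cell of it. Col17a1, the hemidesmosome collagen of epithelia, had 7 UMIs, 1 each in 7 fibroblast-like cells. Col7a1, Col28a1, Col11a2 and Col8a2 had 5 to 14 UMIs each.

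The finer clustering held 181 mesenchymal-like cells in 4 groups, 177 of them from library 1. They are called by their leading genes: Apod- and Dcn-high (65 cells), Smoc2- and Cyp2e1-high (64 cells), Myh11-high with Acta2 and Tagln (28 cells) and Limch1- and Npnt-high (24 cells). For 9 of 19 chains with at least 50 UMIs in these groups, the interval of the highest group lay above those of all others. Without the cell with most UMIs in every group this held for 7 of the 19. These were Col1a2, Col5a2, Col14a1, Col18a1, Col13a1 and Col23a1, and also Col15a1, which was not among the 9. Col4a1, Col4a2 and Col12a1 were among the 9 but not among the 7.

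Fibrillar sums were 65.3 (63.0 to 67.6) in Apod- and Dcn-high, 56.9 (54.6 to 59.3) in Smoc2- and Cyp2e1-high, 55.5 (52.4 to 58.8) in Myh11-high and 37.3 (34.7 to 40.04) in Limch1- and Npnt-high cells. Col1a2 led in Apod- and Dcn-high cells at 26.4 (24.9 to 27.9), and was 14.6 (13 to 16.3) in Myh11-high cells, where Col1a1 was 15.7 (14 to 17.5). The ratio of Col1a1 to Col1a2 was thus 1.08 (0.917 to 1.26) in Myh11-high cells and 0.605 to 0.647 in the other 3 groups. Col14a1 was highest in Apod- and Dcn-high cells, 5.91 (5.24 to 6.65), followed by Smoc2- and Cyp2e1-high cells, 3.99 (3.4 to 4.66). It was 1.06 (0.662 to 1.60) in Myh11-high and 0.867 (0.514 to 1.37) in Limch1- and Npnt-high cells.

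Myh11-high cells, which carry smooth muscle genes, had the highest basement membrane sum of the 4, 9.84 (8.54 to 11.3), close to the 9.79 (8.88 to 10.8) of the Vwf- and Gja4-high endothelial group. Col4a1 was 4.61 (3.73 to 5.63) and Col4a2 4.13 (3.30 to 5.10) in them. Apod- and Dcn-high cells had much less Col4a2, 0.832 (0.592 to 1.14), than Col4a1, 2.71 (2.26 to 3.22). Their ratio of Col4a1 to Col4a2 was 3.26 (2.26 to 4.79), against 1.12 (0.826 to 1.51) in Myh11-high and 1.02 (0.677 to 1.54) in Limch1- and Npnt-high cells, so the 2 chains of the common type IV trimer were not counted in 1 fixed ratio. Col5a2 and Col18a1 also led in Myh11-high cells, at 4.32 (3.47 to 5.31) and 3.02 (2.32 to 3.87). Col12a1 was 1.39 (0.932 to 2.00) there, beside 1.38 in Car4-high endothelial-like cells. Without the top cell the Myh11-high values were 3.28 for Col4a1, 3.44 for Col4a2 and 1.08 for Col12a1, and their intervals no longer lay above those of all other groups.

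Smoc2- and Cyp2e1-high cells were marked by Col23a1, at 6.09 (5.35 to 6.90) against 0.480 to 1.49 in the other groups, and were among the highest for type VI chains, with Col6a3 at 8.11 (7.26 to 9.04). Col4a5 was 1.13 (0.830 to 1.51) in them and lowest in Apod- and Dcn-high cells, 0.341 (0.195 to 0.554). Among chains higher in the contractile-mesenchymal-like cluster, Col4a5, Col6a2, Col6a3, Col15a1 and Col23a1 had their highest rate in Smoc2- and Cyp2e1-high cells. Col5a1, Col5a2, Col4a2, Col12a1, Col6a1 and Col18a1 had it in Myh11-high cells. For several of these chains the intervals of the groups overlapped. Limch1- and Npnt-high cells, which share genes with alveolar fibroblasts, were marked by Col13a1, at 2.79 (2.12 to 3.61) and seen in 23 of 24 cells. Smoc2- and Cyp2e1-high cells followed with 1.48 (1.13 to 1.90), and Myh11-high cells held 1 UMI.

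**Figure D5:**
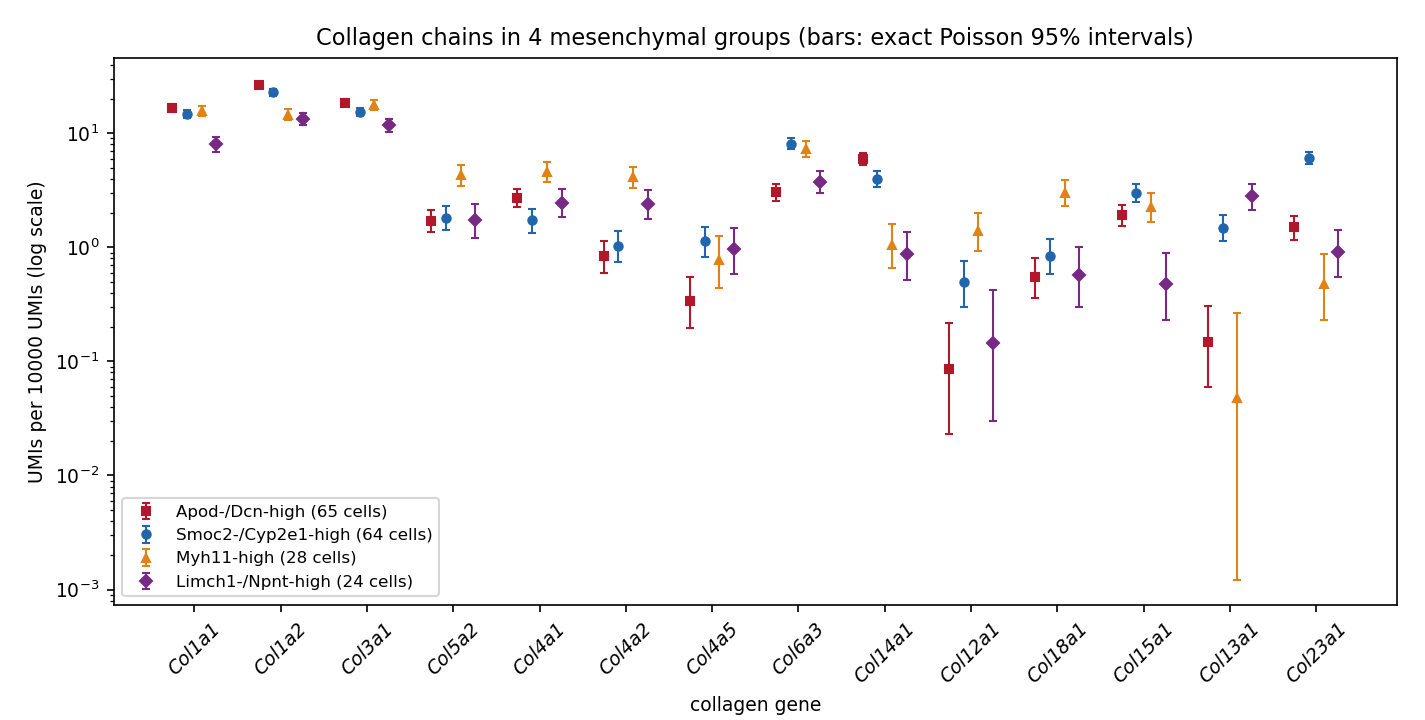
Rates of 14 collagen genes (x axis) in UMIs per 10000 UMIs on a log scale in 4 finer mesenchymal groups, with exact Poisson 95% intervals. The 3 major fibrillar genes lie between 8.04 and 26.4 in all groups, whereas Col23a1 peaks in Smoc2- and Cyp2e1-high cells (6.09), Col13a1 in Limch1- and Npnt-high cells (2.79) and Col4a2 in Myh11-high cells (4.13).

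Cluster 11 held a fibrillar sum of 18.6 (17.6 to 19.7) from cells of unlike kinds. With 30 principal components in place of 20, 17 cells led by secretory genes separated, and the mesenchymal-like clusters took up 29 more cells. Those 29 had a fibrillar sum of 45.6 (43.0 to 48.3), with Col3a1 at 20.8 (19.0 to 22.6) and Col14a1 at 7.76 (6.70 to 8.95). A single cell held 180 of the 508 Col3a1 UMIs of these 29. The 17 secretory-led cells had a fibrillar sum of 3.79 (3.24 to 4.41), with UMIs in 4 cells. A single cell held 145 of these 169 UMIs, and without it the sum was 0.573 (0.367 to 0.852). Scgb1a1, the main secretory protein of club cells, had a rate of 4120 in the 17 cells and 0.705 to 3.38 in every cluster other than 11.

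The sort selected on the p16 reporter, and Cdkn2a, the gene of p16, was uneven over the collagen-making classes. Its rate was 2.57 (2.40 to 2.74) in endothelial-like and 0.263 (0.183 to 0.365) in mesenchymal-like cells. UMIs of mCherry numbered 69 and 2. In Car4-high cells with a Cdkn2a UMI (275 cells) and without (179 cells), Col4a1 was 3.37 (3.08 to 3.67) and 3.39 (3.01 to 3.8), and Col12a1 was 1.45 (1.27 to 1.65) and 1.25 (1.03 to 1.51), with overlapping intervals. In Plvap- and Vwf-high cells Col4a1 was 4.21 (3.69 to 4.78) in the 52 with Cdkn2a and 5.44 (4.87 to 6.06) in the 95 without, and Col12a1 was 0.749 (0.540 to 1.01) and 0.348 (0.216 to 0.533). For Col12a1 the intervals overlapped in library 1, 0.527 (0.326 to 0.805) with and 0.352 (0.215 to 0.544) without, and the cells without it in library 2 held 1 UMI. Cdkn2a itself was higher in the Plvap-led group, 1.68 (1.38 to 2.01), than in Vwf- and Gja4-high cells, 0.643 (0.427 to 0.930), which differ in the same 2 collagens, and median depth was 9411.5 UMIs in the cells with Cdkn2a and 5073 in those without; the part of either in the result was not tested. Within library 1, Col4a1 was 4.26 (3.65 to 4.95) in the Plvap- and Vwf-high cells with Cdkn2a and 5.72 (5.11 to 6.38) in those without. In library 2 the Col4a1 order turned, 4.08 with Cdkn2a against 0.868 without, the latter from 3 UMIs in 9 cells. Col4a2 over both libraries was 2.34 (1.95 to 2.77) with Cdkn2a and 3.60 (3.14 to 4.11) without. Within library 1 the Col4a2 intervals overlapped, 2.71 (2.22 to 3.27) and 3.73 (3.25 to 4.27).

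Genes that fold, process and bind collagen were read beside the chains. Of 21 measured genes of chain modification, folding and export, 10 were at least 2-fold higher and 1 lower in mesenchymal-like cells (backgrounds 14.9% and 21.2%), and 6 were higher and 5 lower in endothelial-like cells (25.6% and 23.7%). The endothelial shares are near their backgrounds. Serpinh1, the collagen chaperone of the endoplasmic reticulum, had a rate of 11.7 (11.2 to 12.3) in mesenchymal-like and 2.02 (1.87 to 2.17) in endothelial-like cells, against 0.0209 in lymphoid-like cells. Of 11 genes of extracellular processing and crosslinking, 9 were at least 2-fold higher and 1 lower in mesenchymal-like cells, against 3 higher and 6 lower in endothelial-like cells. Pcolce, which enhances the cutting of fibrillar procollagen, and Loxl1, a crosslinking enzyme, had 7.50 (7.04 to 7.98) and 3.13 (2.83 to 3.44) there. Endothelial-like cells held 2 UMIs of Pcolce and 0 of Loxl1. Pxdn, the peroxidase that crosslinks type IV collagen, went the other way, 3.29 (3.11 to 3.49) in endothelial-like and 0.368 (0.272 to 0.486) in mesenchymal-like cells.

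Of 13 basement membrane partners, 9 were at least 2-fold higher and 2 lower in mesenchymal-like cells (backgrounds 14.9% and 21.2%), and 4 were higher and 6 lower in endothelial-like cells (25.6% and 23.7%). The same backgrounds apply to every list of pathway genes here. The laminin chain genes Lama2, Lamb1 and Lama4 had 2.72 (2.45 to 3.02), 2.92 (2.63 to 3.22) and 2.48 (2.22 to 2.77) in mesenchymal-like cells, and 0, 3 and 7 UMIs in endothelial-like cells. Of 10 collagen receptors, 5 were at least 2-fold higher and 4 lower in mesenchymal-like cells, and 3 were higher and 6 lower in endothelial-like cells, where the median fold was 0.144. The 3 were Itga1 and Itga2, the alpha subunits of collagen-binding integrins, at 4.13 (3.93 to 4.35) and 1.04 (0.936 to 1.15), and Adgrg1, an adhesion receptor for type III collagen, at 3.13 (2.94 to 3.31). Ddr2, the receptor kinase for fibrillar collagen, was stromal, 2.34 (2.09 to 2.61) against 0.0225 in endothelial-like cells. Of 7 genes of collagen breakdown, 4 were at least 2-fold higher and 2 lower in mesenchymal-like cells, and all 7 were lower in endothelial-like cells. Of these, Mmp2, a gelatinase, was at 5.2 (4.82 to 5.60) in mesenchymal-like cells and had 3 UMIs in endothelial-like cells. The shares of basement membrane partners and receptors that were higher in endothelial-like cells are near the background of 25.6%.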

How the data were processed

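The deposited table holds natural log values per cell, ln(1 + UMIs × 10000 / UMIs of the cell), which the authors made after counting with Cell Ranger 3.0.2 on mm10, per the submitters' processing notes. The sources used here give no annotation, cell filter or doublet step, and the form of the logarithm was read from the values. Whole UMIs were recovered from the deposited log values, with a largest deviation of 1.78e-10 from a whole number. The 1344 cells of 2 libraries (median 5631 and 6716 UMIs) were treated as 1 pooled sample, since their names were not matched to the samples, so no test was run and no p-value is given. The table was read in full, with 0 columns of values left unused.

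Cells were clustered with scanpy 1.11.5 and igraph 0.11.9 (python 3.11.15, numpy 2.4.6, pandas 2.3.3) on 2000 variable genes without the 102 collagen and pathway genes, scaled with a maximum of 10, 20 principal components, 15 neighbours and Leiden resolution 0.5, and named from 35 marker lists. The finer groups used resolution 1. No doublets were removed; 47 cells (3.50%) had markers of several lineages. Rates and 95% intervals were computed with scipy 1.17.1 and figures drawn with matplotlib 3.10.9. Intervals of ratios are exact and conditional on the summed UMIs. Fold calls used a fold of 2, genes with at least 20 UMIs and, for a class with no UMI, 3 counts; such a class was never called higher. The steps were tested on simulated data. Gene positions are from GENCODE for GRCm38, and 12 further annotated collagen genes were not analysed here.

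Every collagen gene could be named, with values per class from 50 UMIs on. Of each pathway list, up to 5 genes with the highest rate were named, and up to 5 leading genes per cluster. The members, lists and alternatives were chosen with earlier results of these data known.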

Additional observations from a re-analysis of the deposited data

How the results depend on the processing

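The count of chains at least 2-fold higher in endothelial-like cells was 3 under all 9 alternatives. The count for mesenchymal-like cells (20) was 19 to 26 under 8 alternatives and 5 with library 2 alone, which has 5 such cells. The fibrillar rate of mesenchymal-like cells (55.6) moved to 54.0 with 30 principal components, to 54.0 with the collagen and pathway genes kept for clustering, to 54.0 without the cell with most such UMIs, to 28 with library 2 alone and to 42.9 with cluster 11 joined, an alternative chosen after seeing the data. The basement membrane rate of mesenchymal-like cells (5.50) moved to 5.03 with 30 components, to 5.03 with those genes kept, to 7.18 in library 2 and to 4.64 with cluster 11 joined. That of endothelial-like cells (6.80) was 7.61 in library 1 and 4.89 in library 2. The fibrillar rate of endothelial-like cells (0.0479) was 0 in library 2, which at 3 counts allows up to 0.0285. The cause was not tested where libraries differed. Of the rates in single clusters, Col12a1 in Plvap- and Vwf-high cells ranged from 0.424 to 1.12 and Col14a1 in interstitial-macrophage-like cells from 0.364 to 1.47, the ends being single libraries; these alternatives were also chosen after seeing the data. No paired analysis was possible because the 2 samples form 1 group and the values come from no test. For Col4a1, Col4a2 and Col12a1, ratios between the 2 endothelial-like clusters within each library stand beside the pooled ones in the report.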
